A study of Drosophila melanogaster with 3 samples.

Results

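Traffic jam (Tj) bound 419 sites inside annotated exons away from promoters, out of 10688 reproducible binding sites in whole adult female Drosophila melanogaster. A site is the summit of a called peak in the list that passed the irreproducible discovery rate (IDR) analysis. A summit was counted as exonic when it lay more than 500 bp from every annotated transcription start site (TSS) and inside any annotated exon of a gene that is not a transposable element. The 419 summits made up 3.92% of the list (95% Wilson interval 3.57 to 4.31%, counting error only). They comprised 132 in 5′ UTRs, 100 in coding sequence, 119 in 3′ UTRs and 68 in exons of non-coding genes. A base that had several roles was given the first of these in that order. The other summits were 5163 at promoters, 4219 in introns and 887 between genes.

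Chromatin immunoprecipitation with sequencing was carried out with an antibody against GFP on the strain tj-GFP, a stable transgenic line with GFP fused to the C terminus of tj, labelled a tj-eGFP fusion. There were 3 biological replicates in 1 group of adult females of unknown age, and the labels name no other genotype or treatment. Chromatin came from the whole organism and was sonicated to 200 to 800 bp, so the cells that carried each site cannot be told apart. Only peak lists were analysed, so sequencing depth is unknown, and no immunoprecipitation from flies without the tag was analysed here.

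Tj is a large Maf protein of the basic leucine zipper class, known for its role in the somatic cells of the gonad. Large Maf proteins bind as dimers to the Maf recognition element, a palindrome whose arms each carry the bases TGCTGA. The run TGCTGAC is an arm with the base that follows it in the element, and is called the Maf core here. Transcription factor sites are usually sought in promoters, introns and intergenic enhancers, yet coding exons can also hold enhancer sequence, and the exon of one transcript is often the intron or promoter region of another.

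Coding summits were few per base and had low signal, and 25 of 100 held TGCTGAC within 100 bp, against 6.84% of all IDR summits. The sites below are shown because they lie within coding exons and carry the core, between 4 and 62 bp from the summit. Capitals mark the core, and each sequence is written in the direction in which the core reads, from the Release 6 genome (dm6).

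oxt: gatcgcatttcTGCTGACgctcaacggaa
Dscam3: ctcatcaaaaaTGCTGACgaacgcgatgc
Socs36E: cgacaacatatTGCTGACtggcagcgact
PDZ-GEF: cgaggtcgtaaTGCTGACgctgcaggagt
rictor: agaggaaatacTGCTGACacatcgtgtta
scyl: tactactacgcTGCTGACgaggaggaggg
vret: aaccacgcactTGCTGACgccgtcttcca

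The oxt site lies at chr3L:2261530-2261558 on the minus strand, 62 bp from its summit, in exon 2 of 3. The Dscam3 site lies at chr3R:17490296-17490324 on the minus strand, 11 bp from its summit, in exon 10 of 35. The Socs36E site lies at chr2L:18141772-18141800 on the plus strand, 6 bp from its summit. The PDZ-GEF site lies at chr2L:6327782-6327810 on the plus strand at 20 bp, and the rictor site at chrX:19256842-19256870 on the plus strand at 4 bp. The scyl site lies at chr3L:11253942-11253970 on the plus strand at 7 bp. The vret site lies at chr3R:22744602-22744630 on the plus strand at 61 bp. oxt and Dscam3 are known for glycosaminoglycan synthesis and cell adhesion, and the other hosts for signalling (Socs36E, PDZ-GEF, rictor, scyl) and the piRNA pathway (vret).

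A full palindrome was rarer. It was searched as TGCTGA and TCAGCA separated by 1 or 2 bases, a pattern that reads alike on both strands and overlaps the core wherever a C follows an arm. Of the exonic summits 10 held it with 1 mismatch, and 5 of these were coding. The 5 below are shown as examples that come close to the complete element, with the palindrome in capitals. The summits not shown come equally close, also with 1 mismatch.

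brwl: gcctcgttTGCTGAGACAGCAgcaacaga
rod: acttgagcTGCTGGTTCAGCAaattgaaa
CG7194: ccaattatTGCTAACATCAGCAggaaccgg
Remo: ctattaccAGCTGAGTCAGCAggcggtga
Fancd2: acattccgTGCTGAAGCAGCAatttaagg

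The brwl site (chr2L:9571059-9571087) lies in a 5′ UTR, 6 bp from its summit. The other sites are coding: rod (chr3R:31584523-31584551) at 16 bp, CG7194 (chr3L:8303084-8303113) at 5 bp, Remo (chrX:13291322-13291350) at 30 bp and Fancd2 (chr3R:20811306-20811334) at 85 bp. All 5 are written on the plus strand. The remaining summits with 1 mismatch lay at CG11398, Pp1alpha-96A, Sema1b, Wnt2 and FANCI. The relative signal of the 10, defined below, was highest at brwl (2.37 ± 0.26, SD, n = 3) and lowest at FANCI (0.431 ± 0.12). Fancd2 and FANCI encode the paired proteins of the Fanconi anaemia DNA repair complex, and rod encodes a kinetochore protein.

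Exonic sequence held fewer summits per base than the rest of the genome. Away from promoters, exons covered 26.4 Mb, or 19.8% of the 6 chromosome arms, and held 15.8 summits per Mb, against 285 at promoters, 79.9 in introns, 24.3 between genes and 79.8 over all sequence. The exon classes differed widely. Density was 127 per Mb in 5′ UTRs, 63.7 in non-coding exons and 20.1 in 3′ UTRs, while coding sequence, with 18.4 Mb, had 5.43 per Mb. No test was run on these densities, which come from 1 list made from all replicates.

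The deposited pooled list of 30000 summits also bears on exonic sites, since 19312 of its summits did not pass into the IDR list. Every pooled summit inside the IDR list had a higher deposited signal than every one outside it, so the share kept in a class follows the pooled signal and is no separate measure of reproducibility. Of those, 1896 (9.82%) were exonic, including 813 coding, 687 in 3′ UTRs, 222 in 5′ UTRs and 174 in non-coding exons. Of all exonic pooled summits, 18.1% were in the IDR list, against 45% of promoter summits, 32.2% of intronic, 28.7% of intergenic and 35.6% of all. The share was 11% for coding sequence, 14.8% for 3′ UTRs and 28.1% for non-coding exons, but 37.3% for 5′ UTRs. Coding, 3′ UTR and non-coding exon summits were thus a larger share of the calls outside the IDR list than of those inside it. For non-coding exons these shares were 0.901% and 0.636%, and for 5′ UTRs they were 1.15% and 1.24%.

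**Figure D1:**
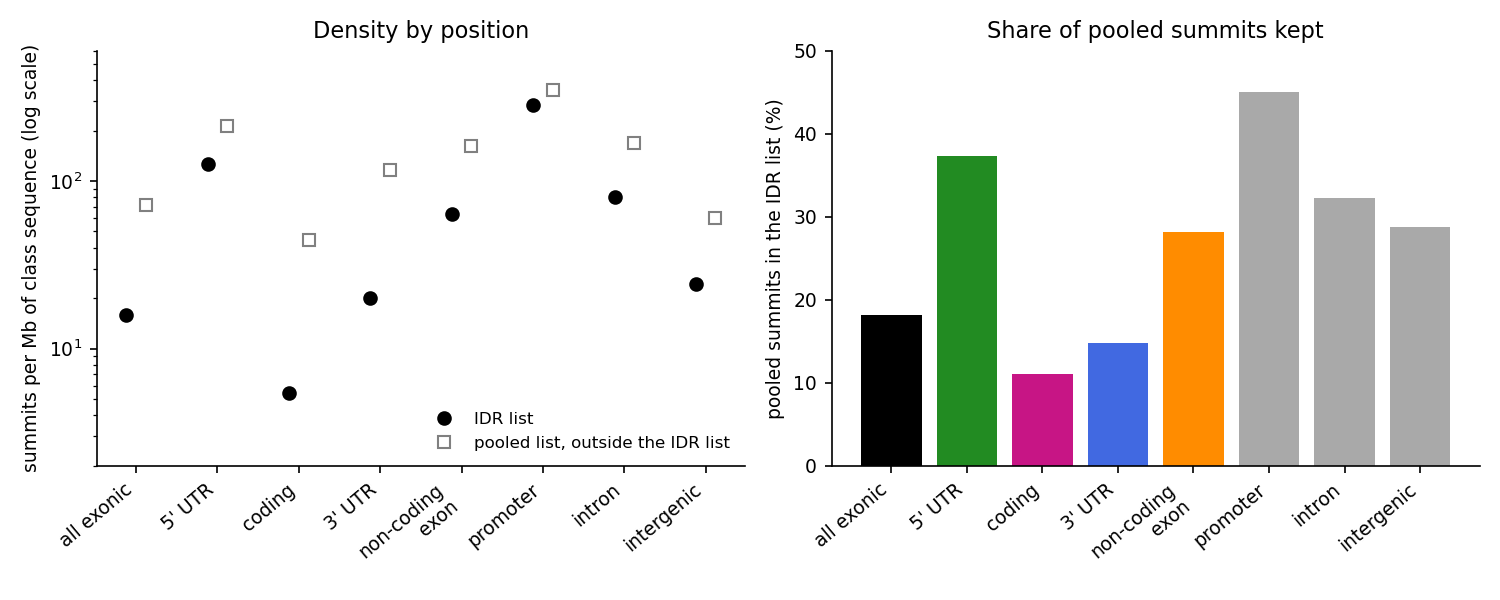
Left, summits per Mb of the sequence of each position class (log scale) in the IDR list (filled circles) and among pooled summits outside it (open squares); right, the percentage of pooled summits that were in the IDR list. Coding sequence is lowest in both panels, at 5.43 IDR summits per Mb and 11% kept, and 5′ UTRs are the highest exon class, at 127 per Mb and 37.3%.

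Signal was compared as relative signal. For each IDR summit the highest replicate value found no more than 200 bp away was divided by that replicate's median over the 10265 IDR summits matched in all 3 replicate lists. A value of 1 is therefore a typical site. Of the exonic summits, 399 had a match in all 3 lists and 20 lacked one in at least 1 list. Summits near each other can share a replicate summit and so a value. The median relative signal of exonic summits was 0.882, 0.968 and 0.962 in replicates 1, 2 and 3, against 1.01, 0.988 and 0.978 at promoters, 1.02, 1.04 and 1.04 in introns, and 0.958, 0.944 and 0.971 between genes. Exonic medians lay below intronic ones by 0.14 ± 0.06 and below promoter ones by 0.08 ± 0.09 as log2 differences (−0.14 and −0.08, SD, n = 3), in 3 of 3 replicates each. Against intergenic summits the difference was −0.03 ± 0.08 and its sign varied. An exact two-sided sign-flip permutation test over the 3 replicates gave p = 0.25 for the first 2 differences and 0.75 for the third, and 0.25 is the smallest p that 3 replicates allow. After Benjamini-Hochberg adjustment over the 3 comparisons these permutation p-values were 0.38, 0.38 and 0.75. Among the 5344 IDR summits with the higher deposited signal the exonic median was above the promoter median, by 0.17 on the log2 scale. With promoters limited to 250 bp the exonic minus promoter difference was −0.00 (exact permutation p = 1.00).

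The exon classes differed from each other more than exonic summits as a whole differed from other sites. Non-coding exons were highest, with medians of 1.48, 1.36 and 1.33 in replicates 1, 2 and 3. The 5′ UTR medians were 1.06, 1.17 and 1.11, and the 3′ UTR medians were 0.852, 0.923 and 0.943. Coding medians were lowest, at 0.704, 0.775 and 0.772. The order was the same in every replicate, and no replicate's coding median reached a median of another exon class. Non-coding exons exceeded coding sequence 1.85-fold (log2 0.89 ± 0.16, SD, n = 3), 5′ UTRs exceeded it 1.48-fold (0.57 ± 0.04) and 3′ UTRs 1.21-fold (0.27 ± 0.02). Non-coding exons exceeded 3′ UTRs by 0.61 ± 0.16 and 5′ UTRs by 0.32 ± 0.15, and 5′ UTRs exceeded 3′ UTRs by 0.30 ± 0.05 on the log2 scale. All 6 differences had an exact permutation p of 0.25, also after adjustment over the 6 pairs, so none could pass a threshold of 0.05 in this design. The lead of 5′ over 3′ UTRs did not hold when summits up to 1000 bp from a TSS counted as promoter, where the difference was −0.04, and that of non-coding exons over 5′ UTRs was 0.08 with 1 summit per region.

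**Figure D2:**
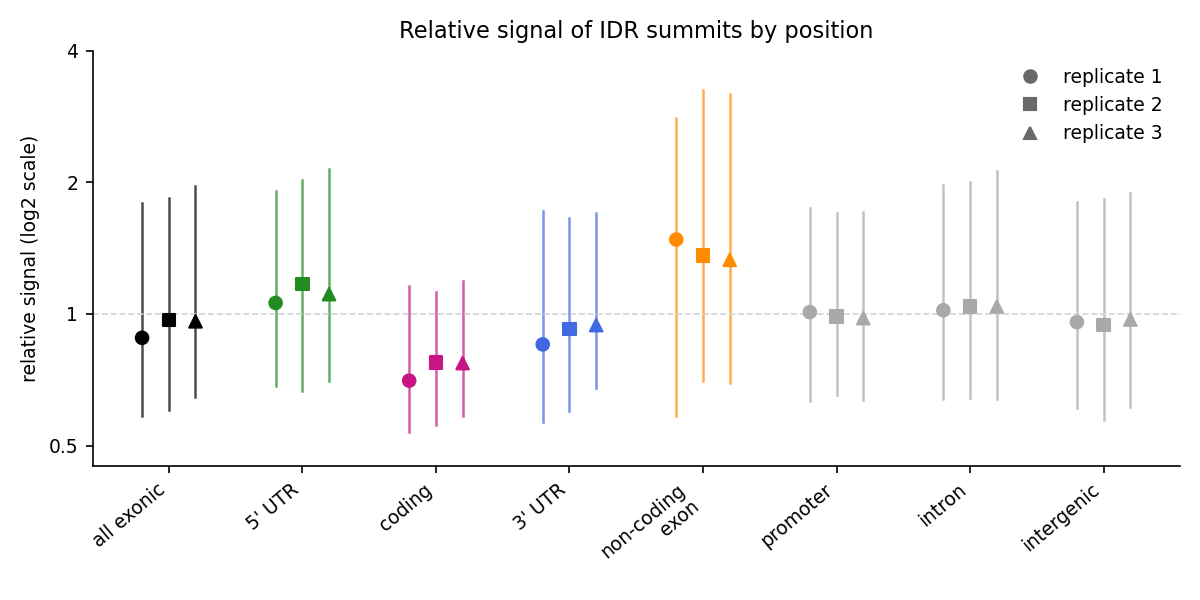
Median relative signal of IDR summits by position class in each replicate (symbols; log2 scale), with bars from the lower to the upper quartile of summits. The 4 exon classes stand left of promoter, intronic and intergenic summits; coding medians (0.704 to 0.775) lie below and non-coding exon medians (1.33 to 1.48) above those of every other class.

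Reproducibility of exonic sites was near that of the list. Of the exonic summits, 317 (75.7%, 95% interval 71.3 to 79.5%) were matched, to within 200 bp, among the top 10688 summits of each replicate, against 76.5% of all IDR summits. The share was 69.0% for coding, 76.5% for 3′ UTR, 77.9% for non-coding exon and 78.8% for 5′ UTR summits, and 2 exonic summits, 1 shared by CG12535 and Myc and 1 at jp, were matched in no replicate. The IDR list was made from the replicate and pooled lists, so this match is partly built in. The exon assignment itself was less stable than other assignments. In 357 cases (85.2%, 81.5 to 88.3%) the closest summit of all 3 replicate lists was also exonic, against 93.7% of all IDR summits that kept their class. It was 78.0% for coding, 83.8% for non-coding exon, 84.1% for 5′ UTR and 93.3% for 3′ UTR summits. The median shift between an exonic summit and its replicate summit was 14.0 bp. Of 100 coding summits 35 lay within 50 bp of an exon's edge, against 18.4% of exonic summits together.

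Summits are ordered here by their deposited signal in the IDR list, and the values given are relative signal in the replicates, in which the order can differ. The exonic summit with the highest deposited signal lay in the first exon of Tango5, which encodes a membrane protein of the secretory pathway (X, 10763052 to 10764555). Its relative signal was 9.60, 10.8 and 11.6 in replicates 1, 2 and 3. It lay 691 bp from the nearest TSS, in the 5′ UTR, and 4 other transcripts of the gene have an intron there. The interval held 2 summits, and the nearest other IDR summit, at a promoter, lay 231 bp away. All 3 replicates were far above a typical site of 1.

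Next in deposited signal came the coding summit in exon 2 of 6 of Atg4b, which encodes a cysteine protease of autophagy (3R, 15356009 to 15356887). It had 10.4, 9.36 and 12.2 and lay 572 bp from the gene's own TSS. This was the strongest coding summit, with no other IDR summit for 5153 bp. The strongest summit in a non-coding exon was at lncRNA:CR9162 (2L, 6078655 to 6079593), at 9.64, 8.68 and 14.3. The spread over replicates there, 10.9 ± 3.01 (SD, n = 3), was the widest of the 20 exonic summits highest in deposited signal. Its mean was also the highest of all exonic summits in relative signal, against 10.7 at both Tango5 and Atg4b.

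The strongest 3′ UTR summit lay in CG1888 (2R, 9543461 to 9545402) at 8.75, 7.94 and 9.55, and its window held the Maf core. CG1888 had 3 exonic summits, all in its 3′ UTR, and the others were at 1.62 ± 0.21 and 1.08 ± 0.76. The 3′ UTR of ND-B17, a subunit of mitochondrial complex I, held a summit at 7.57, 7.46 and 8.32 (2L, 15749231 to 15749910) whose nearest TSS belonged to CycE, the cyclin E gene, 1363 bp away. The 3′ UTR of stas held 3 summits in 1 interval, at 6.74 ± 1.33, 5.75 ± 1.82 and 1.24 ± 0.33. The 3′ UTR of Lime, a zinc finger gene of blood cell metabolism, had 4.65, 4.43 and 4.44.

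After Tango5, the 5′ UTR summits among the 20 highest in deposited signal lay in pico, pyr, dos, spen and fra, and Egfr is given as a member of a gene list. Egfr, the epidermal growth factor receptor, had a summit at 4.56, 3.56 and 4.0 in a first exon, 735 bp from the TSS. The Gab-type adaptor gene dos, which acts below receptor tyrosine kinases, had 3.81, 5.67 and 7.50, so replicate 1 was lowest there. The FGF ligand gene pyr had 7.36, 5.03 and 7.83, and pico, which encodes a lamellipodin-type actin regulator, had 5.88, 6.07 and 8.69. The summits were at 5.36 ± 0.58 in spen, a transcriptional regulator of the Split ends family, and at 4.77 ± 0.31 in fra, the Netrin receptor. No replicate of these summits was below 3.

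Among coding sites CG9953 followed Atg4b in deposited signal, with 6.89, 7.21 and 9.69, at 969 bp from the TSS of CG10063. The summit in oxt, which encodes the xylosyltransferase that starts glycosaminoglycan chains, had 7.06, 6.81 and 8.30 and was the strongest exonic summit with a coding Maf core. Mondo, a glucose-responsive factor of the basic helix-loop-helix zipper class, had 4.10, 4.50 and 4.45 in exon 8 of 12. Su(z)12, a core subunit of Polycomb repressive complex 2, had 2.85, 2.75 and 3.66 with a palindrome of 2 mismatches. Named after their values were seen, the coding summits in Dcr-2, the Dicer of small interfering RNAs, at 7.37, 1.52 and 8.24, and in Sugb, at 5.67, 2.46 and 7.01, had higher mean relative signal than Mondo, and both were lowest in replicate 2. The coding exons of Dscam3, an immunoglobulin adhesion gene, had 3.01, 2.86 and 2.89 at 15368 bp from any TSS and 45047 bp from the next IDR summit.

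**Figure D3:**
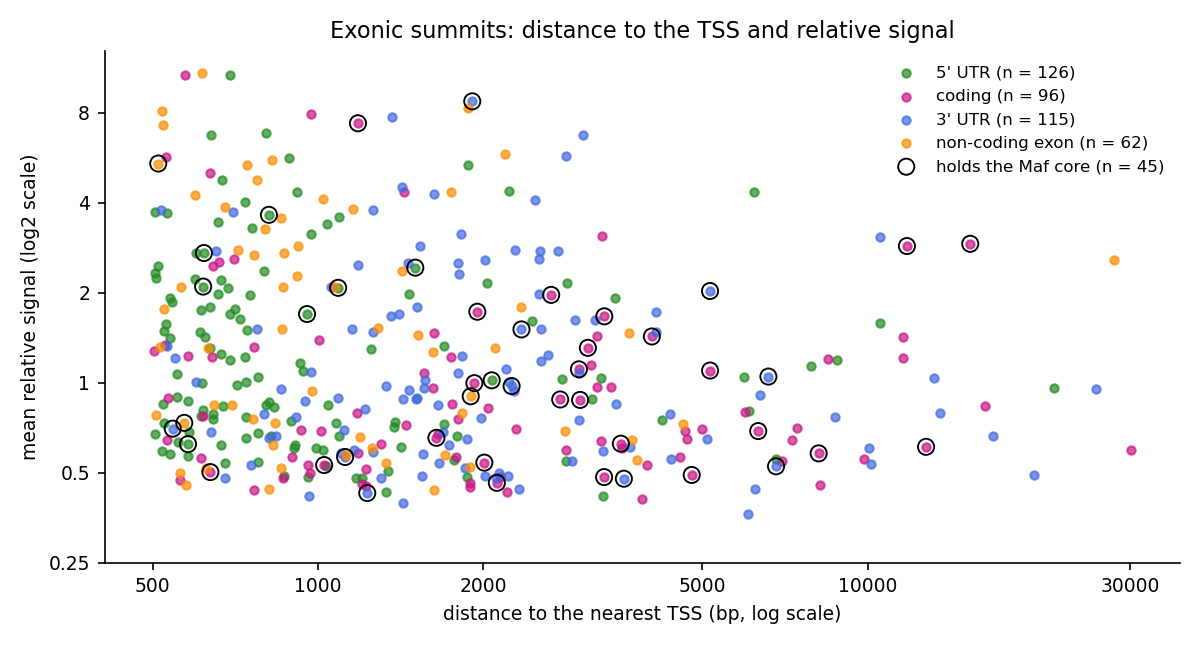
Mean relative signal over 3 replicates (log2 scale) of the 399 exonic summits matched in all 3 replicate lists, against distance to the nearest TSS (log scale), coloured by exon class; rings mark the 45 of them that hold the Maf core. The 3 summits highest on this scale, lncRNA:CR9162 at 10.9 and Tango5 and Atg4b at 10.7, lie under 1000 bp from a TSS, and ringed coding summits reach to 15368 bp, at Dscam3.

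The exonic summits lay a median of 1283 bp from a TSS (range 502 to 30123 bp), and 169 (40.3%) were within 1000 bp. The medians were 778 bp for 5′ UTRs, 862 bp for non-coding exons, 1828 bp for 3′ UTRs and 1908 bp for coding sequence. The 110 exonic summits at 501 to 750 bp had a mean of the replicate medians of 1.32 ± 0.06 (SD, n = 3), against 1.03 ± 0.05 for the 402 intronic and 0.928 ± 0.04 for the 101 intergenic summits at the same distances. At 1001 to 2000 bp it was 0.834 ± 0.02 for exonic, against 1.10 ± 0.03 for intronic and 0.926 ± 0.03 for intergenic summits, and beyond 5000 bp it was 0.793 ± 0.02 against 0.955 ± 0.02 and 0.943 ± 0.04. The nearest bin held 61 summits in 5′ UTRs and 23 in non-coding exons, and the part of this mix in the signal was not tested.

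The limit of 500 bp cut through a run of sites. Just inside the exonic set were dlp, a glypican gene, at 502 bp with 1.71, 0.983 and 1.14, Pka-C3 at 506 bp with 4.21, 3.28 and 3.72, and melt at 506 bp with 2.33, 2.38 and 2.28. Just on the promoter side were exonic positions in CG32845 at 498 bp with 0.839, 0.769 and 1.13, in slmo at 497 bp from the TSS of Pfas with 4.74, 4.91 and 5.57, and in CG7369 at 497 bp with 0.963, 0.520 and 0.649. In all, 2220 IDR summits lay in an exon but within 500 bp of a TSS, and these counted as promoter. With the limit at 250 bp there were 797 exonic summits, and with 1000 bp there were 250.

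Exonic sites were not all exonic in every transcript. At 85 of the 419 (20.3%), another transcript of the same gene had an intron, and this was so at 55 of 132 (41.7%) in 5′ UTRs but was 14 of 100 in coding sequence. At 61 (14.6%) the site lay in an intron of a different gene, and 36 of these were among the 68 non-coding exon summits. Some sites were counted in both of these groups, and 278 of the 419 lay in no annotated intron. The 130 matched summits with an intron in some transcript had medians of 0.939, 1.02 and 1.01, against 0.859, 0.960 and 0.929 for the 269 without one, a log2 difference of 0.11 ± 0.03 (SD, n = 3, exact permutation p = 0.25). The difference had the opposite sign in 5′ UTRs, with medians of 0.918, 1.14 and 1.07 for 54 with an intron, against 1.09, 1.24 and 1.14 for 72 without (log2 difference −0.15 ± 0.09, exact permutation p = 0.25). It was also negative for coding summits, with medians of 0.666, 0.624 and 0.670 for 19 with an intron, against 0.707, 0.827 and 0.818 for 77 without (log2 difference −0.26 ± 0.16, exact permutation p = 0.25). In 3′ UTRs it was 0.09 ± 0.10 and in non-coding exons 0.06 ± 0.28, so the classes did not share a direction.

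The nearest TSS belonged to the host gene for 285 exonic summits (68.0%). The share was 90.2% for 5′ UTRs, 72.1% for non-coding exons and 71.0% for coding sequence, but 38.7% for 3′ UTRs. In genes, 5′ UTR summits had a median position of 11.3% of the gene's length, coding summits 55.8% and 3′ UTR summits 89.3%. Last exons of the host transcript held 113 of the 119 summits in 3′ UTRs, while 63 of 100 coding summits were in inner exons.

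Neighbouring IDR summits were counted, with no test. Another IDR summit lay within 1000 bp of 203 exonic summits (48.4%, 43.7 to 53.2%), against 53.1% of all IDR summits. It was 27.0% (19.3 to 36.4%) for coding, 47.1% for 3′ UTR, 58.8% for non-coding exon and 60.6% for 5′ UTR summits. No pair of IDR summits was closer than 199 bp, and 129 exonic summits had another at 250 bp or less. An interval was shared with a summit of another position class at 40 exonic sites, of which 24 had a promoter summit and 14 an intronic one in the same interval.

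The Maf core was found at a larger share of coding summits than of summits of any other class, and no test was run on motif shares. TGCTGAC, on either strand, was found within 100 bp of 46 exonic summits (11%, 8.33 to 14.3%), against 4.80% at promoter, 8.44% at intronic, 9.13% at intergenic and 6.84% at all IDR summits. In windows centred 1000 bp to each side of exonic summits the mean was 1.79%. Of the 46, 25 were coding. Of 100 coding summits these 25 held the core (25%, 17.5 to 34.3%), while 10 of 119 in 3′ UTRs (8.40%), 8 of 132 in 5′ UTRs (6.06%) and 3 of 68 in non-coding exons (4.41%) did. Among the exon classes only the coding share was above the intronic and intergenic shares. Among the 33 coding summits of the 5344 with the higher deposited signal, 13 held the core (39.4%), against 8.74% of all summits in that subset. This cut was applied to coding summits after the data were seen. When the coding summits alone were split by deposited signal, 14 of the higher 50 and 11 of the lower 50 held the core.

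Coding sequence has its own base composition, so the share was also read in other coding windows. Of 91402 windows of 201 bp tiled over the genome with a coding centre away from promoters, 3.54% held the core, and of the 813 coding summits of the pooled list outside the IDR list 7.26% did (5.67 to 9.25%). The flanks of coding IDR summits, which were not limited to coding sequence, held it in 1.00%. The median GC content was 50.2% at coding summits and 44.0% in their flanks, against 42.8% at exonic summits together and 41.3% over all IDR summits. In the other classes the share of tiles ran from 1.34% in 3′ UTRs to 2.69% between genes. For the whole exonic set it was 2.97% of tiles and 4.91% of pooled summits outside the IDR list.

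The palindrome with up to 2 mismatches gave the same order of exonic, intergenic, intronic and promoter shares. It was found at 42 exonic summits (10.0%), against 3.53% of promoter, 6.26% of intronic, 7.44% of intergenic and 5.18% of all IDR summits, with 1.91% in the exonic flanks. Coding summits held it in 20 of 100 cases, against 2.54% of coding tiles, 4.92% of coding pooled summits outside the IDR list and 1.00% of flanks. In coding sequence 37 of 100 summits held the core or the palindrome and 8 held both. In 3′ UTRs it was 9.24% and in 5′ UTRs 6.06%, where the flanks held 3.41%.

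**Figure D4:**
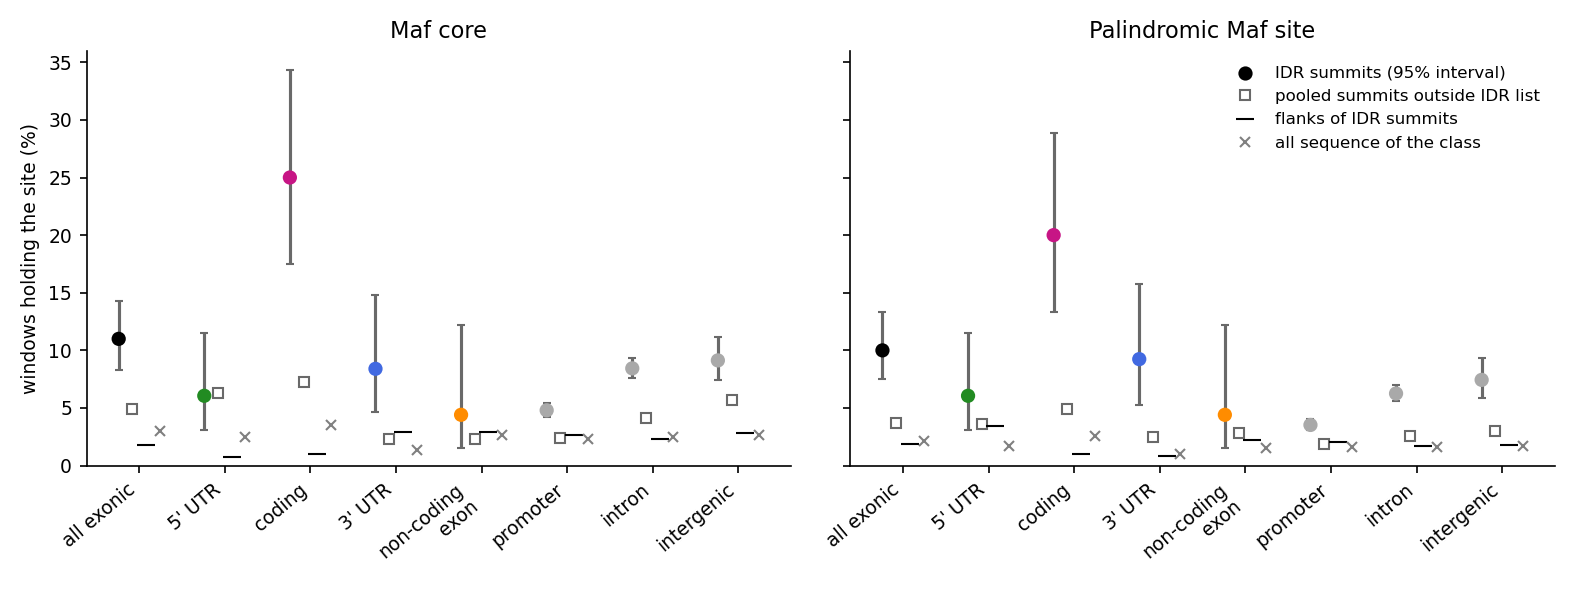
Percentage of windows of 201 bp that hold the Maf core (left) or the palindromic Maf site with up to 2 mismatches (right), at IDR summits (filled, with 95% Wilson intervals), at pooled summits outside the IDR list (open squares), in flanks 1000 bp from IDR summits (dashes) and in all sequence of the class (crosses). Coding summits are highest, with 25 and 20 of 100, against 3.54% and 2.54% of coding sequence.

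The core lay close to the summit. Its median distance was 27.0 bp at the 46 exonic summits, and 34 (73.9%) were within 50 bp, against 25 bp and 74.6% at all 731 IDR summits with a core. At coding summits it was 18 of 25 within 50 bp.

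**Figure D5:**
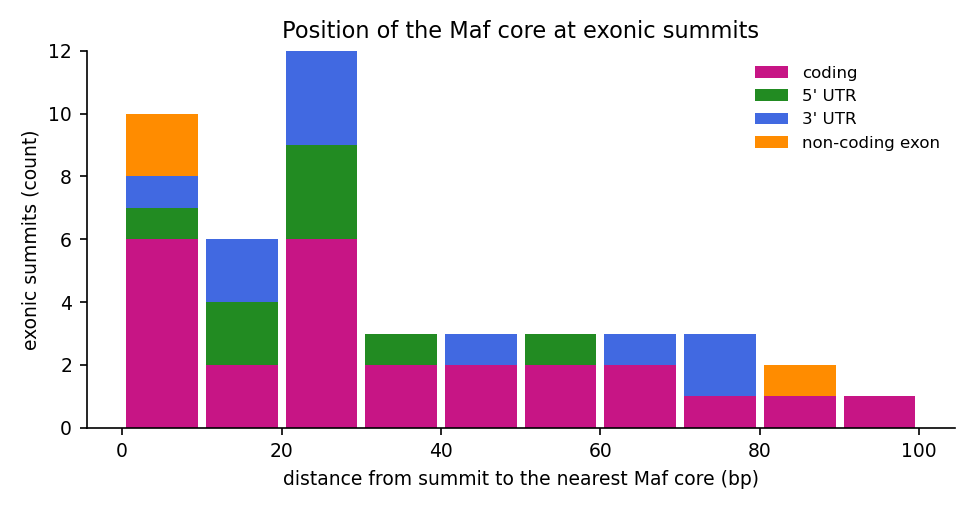
Distance from the summit to the nearest Maf core (bins of 10 bp) for the 46 exonic summits that hold one, stacked by exon class. Most lie within 50 bp (34 of 46), and coding summits make up 25 of the 46.

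Coding summits with the core had higher signal than those without. Their medians were 0.833, 0.841 and 0.861 in replicates 1, 2 and 3 (24 matched summits), against 0.699, 0.699 and 0.751 for 72 matched summits without it. The log2 difference was 0.24 ± 0.04 (SD, n = 3, higher in 3 of 3 replicates, exact permutation p = 0.25). The other classes did not share a direction. The difference was 0.85 ± 0.20 in 5′ UTRs (8 summits with the core), −0.09 ± 0.24 in 3′ UTRs (10) and −0.46 ± 0.37 in non-coding exons (3). Over all exonic summits it was 0.05 ± 0.03. Other properties of the coding summits, which were not tested, are given as counts. Another IDR summit lay within 1000 bp of 3 of the 25, against 24 of 75 without the core, and the closest summit of all 3 replicate lists was exonic for 23 of 25, against 55 of 75. Their median distance to a TSS was 3097 bp, against 1628 bp. The host gene also had an IDR summit at an own promoter for 16 of the 25, and for 50 of the 75 without the core.

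Named coding sites with the core span many functions. Socs36E, a negative feedback gene of JAK/STAT signalling, had 1.75, 1.62 and 1.65. Psc, a subunit of Polycomb repressive complex 1, had 2.01, 1.91 and 1.99, and lola, a zinc finger gene with many isoforms, had 2.98, 2.67 and 2.95. PDZ-GEF, an activator of the small GTPase Rap1, had 1.51, 1.32 and 1.45, and rictor, a subunit of TOR complex 2, had 0.901, 1.25 and 1.18. The actin-associated gene bif varied more, at 0.722, 1.84 and 1.36. Weak ones included scyl, an inhibitor of TOR signalling (0.593, 0.743 and 0.629), vret, a Tudor protein of the piRNA pathway (0.539, 0.416 and 0.639), bves, which holds 2 cores (0.503, 0.571 and 0.669), and Fancd2 (0.698, 0.504 and 0.274). Cores thus occurred over a wide range of signal, and of the 50 coding summits with the higher deposited signal 14 held one, against 11 of the other 50.

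Other motifs did not follow the Maf core. The GAGA run GAGAG was at 56 of 132 summits in 5′ UTRs (42.4%, 34.3 to 51%) and 26 of 68 in non-coding exons (38.2%), but at 16 of 100 coding summits, against 27.4% of all IDR summits. Its flanks held 21.6% for 5′ UTRs, 22.8% for non-coding exons and 19.5% for coding sequence. TATCGATA, the core of the DREF element of promoters, was at 2 exonic summits (0.477%), against 4.84% of promoter and 2.49% of all summits. The AP-1 site TGACTCA was at 6 (1.43%), against 2.70%, and the E-box CACGTG at 10 (2.39%), against 2.67%. In exonic flanks they were at 2.51% and 2.74%. On either strand, TGACTCA also lies inside the palindrome where its arms are 1 base apart and that base is C or G. It is thus not fully separate from the Maf site.

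The 68 non-coding summits fell in 55 genes. Long non-coding RNAs had 52 in 40 genes, antisense RNAs 13 and pseudogenes 3. Of the antisense summits, 11 lay in an intron of another gene, among them asRNA:CR45185 inside Cht6 (5.25, 5.53 and 6.76) and asRNA:CR45924 inside ana (5.38, 5.41 and 5.48). The asRNA:CR45924 interval held 2 summits, and a promoter summit lay 204 bp away. The site in lncRNA:flam, the flamenco piRNA cluster that silences transposons in somatic cells of the ovary, had 7.30, 6.64 and 7.95 at 522 bp from the start of flam. The sites in lncRNA:CR45054 (7.74, 6.83 and 10.4) and lncRNA:CR31044 (7.85, 6.90 and 9.66) lay nearest to the starts of mir-317 and mir-996. lncRNA:CR43334 held 3 summits, the strongest at 5.60, 4.86 and 6.31.

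Exonic summits named 298 of 13945 protein-coding genes as hosts, or 2.14%. A summit within 500 bp of an own TSS was present at 202 of the 298 (67.8%), against 31.9% of all protein-coding genes, and an intronic summit inside the gene at 148 (49.7%), against 9.71%. In 66 hosts (22.1%) there was neither, against 65.4% of all. Hosts were long, with a median of 9318 bp, against 2166 bp over all protein-coding genes, and the part of length in these shares was not tested. Of the host symbols 293 had 1 exonic summit, 46 had 2 and 14 had 3 or more. The G protein-coupled receptor gene mthl1 had 4, all in its 3′ UTR, from 2.31 ± 0.14 down to 0.428 ± 0.15 in the 3 matched in every list. Those with 3 were CG1888, stas, lncRNA:CR43334, CG12535, aqz, Lsd-2, lncRNA:CR45531, Psc, bves, Pdp1, sbb, CG7194 and corto.

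Counted over symbols that matched a gene, the lists of genes by function held from 0 to 5 hosts each. In most lists the share of hosts was above that of all protein-coding genes. It was below that share in the basement membrane, neuronal, translation and chaperone, and ribosomal protein lists. No test was run on these shares. Hosts were long genes, as given above, and the part of gene length in the list shares was not tested. Among the 30 regulators of the gonad soma, 4 were hosts (13.3%), against 2.14% of all protein-coding genes: Egfr above, ftz-f1, a nuclear receptor (0.404, 0.704 and 0.759 in a 5′ UTR), Wnt2, a Wnt ligand (0.528, 0.357 and 0.576 in a 5′ UTR), and tj itself. The tj summit, in its 3′ UTR at 2133 bp from a TSS, was weak at 0.437, 0.360 and 0.707. In all replicates it was below 1. Of the 27 yolk and eggshell genes the chorion genes Cp7Fb (stronger summit 4.18, 3.44 and 3.75) and Cp36 (0.747, 0.986 and 0.943) were hosts, both in 3′ UTRs. Of the 28 piRNA pathway genes vret was the only host, and of the 24 adhesion and polarity genes it was aPKC, the atypical protein kinase C of apical polarity (0.512, 0.537 and 0.305).

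Signalling genes had 5 hosts of the 39 that matched by symbol (12.8%), among them Egfr and Socs36E. Further hosts were the metalloprotease kuz of Notch signalling (1.43, 1.13 and 1.36) and the Hippo kinase wts (0.856, 0.741 and 0.821). The last was the receptor tyrosine kinase antagonist sty (0.590, 0.476 and 0.787). The listed symbol Dl, for the Notch ligand Delta, matched no gene. The gene annotated as Delta had a coding summit (mean relative signal 0.708) but is left out of these counts. Ecdysone genes had 4 of 20, with Eip75B (1.70, 1.83 and 1.63) and Eip93F (1.31, 0.734 and 1.16), which respond to the hormone, shd, the last enzyme of its synthesis (1.07, 3.31 and 2.12), and ftz-f1. The bZIP factors had 3 of 21 (14.3%), namely Pdp1, with 3 summits up to 1.25 ± 0.38, cnc (0.389, 0.499 and 0.411) and tj. Actomyosin and muscle genes had 2 of 23, Act5C (stronger summit 1.24, 1.73 and 1.55) and the paramyosin gene Prm (0.514, 0.474 and 0.595). Metabolic genes had 2 of 33, the lipid droplet gene Lsd-2 and Fas1, which was listed there by symbol but encodes the adhesion protein Fasciclin 1. Of the 3 summits in Lsd-2 the strongest matched one had 2.64, 2.82 and 2.32. Another had a mean of 0.555, and the third lacked a match in at least 1 replicate list. Of 92 ribosomal protein genes RpS10b was the only host (1.09%). None of the 20 basement membrane, 18 neuronal or 21 translation and chaperone genes had one. With 2.14% of all protein-coding genes as hosts, lists of this size would hold few or none, so the absence of hosts in these lists cannot be told from that share. A summit at an own promoter was present in 31.9% of all protein-coding genes, and over the 13 lists the share ran from 11.1% of the neuronal to 85.7% of the translation and chaperone genes.

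By chromosome, exonic summits were 5.0% of those on X (108 of 2160, 4.16 to 6.0%), 4.18% on 2R, 3.6% on 3R, 3.4% on 2L and 3.26% on 3L. On the small chromosome 4 they were 5 of 36 (13.9%, 6.08 to 28.7%). Of the 2672 IDR summits highest in deposited signal 99 (3.71%) were exonic, and of the 2672 lowest 116 (4.34%). For coding summits these counts were 12 and 36, while for non-coding exons they were 23 and 17.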

How the data were processed

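Peak lists came from 3 biological replicates of whole adult females. Per the files' accompanying descriptions, the authors made a relaxed list for each replicate from its alignments and a control, a list from the pooled replicates, and an IDR list. Signal values are as deposited, an enrichment in no stated unit. Aligner, caller and IDR cut-off: not given in the sources used here. Depth is unknown. Members and gene lists were chosen with earlier results of these data known.

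Positions are dm6, genes are Ensembl release 115 (version 6.54), and sequence is the NCBI Release 6 assembly. Summits matched within 200 bp, replicate medians for the relative signal were 114, 242 and 161, and motif windows reached 100 bp to each side. Classes were compared by exact two-sided sign-flip permutation over replicates. Densities, motif shares and list counts had no test. Wilson intervals at 95% cover counting error only, and summits are not independent. Of 403 symbols in 13 lists, 396 matched a protein-coding gene, and list counts cover only these. Named genes were hosts of the 20 strongest exonic summits by deposited IDR signal and the 5 strongest per class, genes with 3 or more summits, list members, sites beside the 500 bp limit and palindromes with 1 mismatch. Other coding sites with the core were chosen after their values were seen. Alternatives varied distances, windows, mismatches, peak sets and replicates. Scripts were tested on simulated data. The work was done in Python 3.11.15 with NumPy (2.4.6) for arrays, SciPy (1.17.1) for adjustment, pandas (2.3.3) for tables and Matplotlib (3.10.9) for figures.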

Additional observations from a re-analysis of the deposited data

How the results depend on the processing

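Of 155 recomputed values, 100 kept their direction and stayed close to the first value, 50 moved and 5 changed sign. Leaving out a replicate gave 330 to 350 exonic summits, counting those matched among the top summits of both others. Exonic minus promoter then ran from −0.11 to −0.03, minus intronic from −0.16 to −0.11, and minus intergenic from −0.07 to 0.01, above 0 without replicate 1. Between exon classes it ran from 0.23 to 0.37 (non-coding minus 5′ UTR), 0.52 to 0.68 (minus 3′ UTR), 0.79 to 0.94 (minus coding), 0.28 to 0.33 (5′ minus 3′ UTR), 0.56 to 0.59 (5′ UTR minus coding) and 0.26 to 0.28 (3′ UTR minus coding).

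With promoters to 250 bp there were 797 exonic summits, 3.90% of coding genes were hosts, and log2 differences were −0.00 (exonic minus promoter, in place of −0.08), 0.01 (exonic minus intergenic), 0.18 (5′ minus 3′ UTR), 0.39 (5′ UTR minus coding) and 0.21 (3′ UTR minus coding); list hosts were 5 (bZIP), 1 (basement membrane), 5 (metabolism), 9 (signalling) and 3 (translation). With promoters to 1000 bp there were 250 summits and 1.33% hosts, and exonic summits differed by −0.23 from promoter, −0.27 from intronic and −0.16 from intergenic ones. Exon classes then differed by 0.26 (non-coding minus 3′ UTR), 0.63 (non-coding minus coding), −0.04 (5′ minus 3′ UTR), 0.32 (5′ UTR minus coding) and 0.36 (3′ UTR minus coding), and list hosts were 2 (ecdysone), 1 (metabolism), 1 (gonad soma), 0 (ribosomal) and 3 (signalling).

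In the stronger 5344 summits 191 were exonic, and differences were 0.17 to promoter, −0.02 to intronic and 0.01 to intergenic summits; between classes they were 0.56 and 0.80 (non-coding minus 5′ and 3′ UTR), 0.23 (5′ minus 3′ UTR), 0.38 (5′ UTR minus coding) and 0.15 (3′ UTR minus coding). The core was then at 39.4% of 33 coding summits. With 1 summit per region the class differences were 0.08, 0.32 and 0.60 (non-coding minus 5′ UTR, 3′ UTR and coding), 0.24 (5′ minus 3′ UTR) and 0.51 (5′ UTR minus coding). With matching at 100 bp they were 0.18, 0.44 and 0.71 (non-coding minus 5′ UTR, 3′ UTR and coding) and 0.53 (5′ UTR minus coding), and at 400 bp 1.06 (non-coding minus coding) and 0.34 (3′ UTR minus coding). Matching at 100 and 400 bp put 67.5% and 82.8% of exonic summits among the top summits of all replicates. With exons of coding genes only, exonic minus intronic was −0.20. The cause of these shifts was not tested.

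Within 50 bp 8.11% of exonic summits held the core, against 5.01% of all, and 6.92% the palindrome, against 3.83%. Within 200 bp the core was at 13.1%, against 9.73% of all. With 1 and 3 mismatches the palindrome was at 2.39% and 30.8%, against 0.608% and 24.4% of all. Counting any other class within 1000 bp, 28.4% of exonic summits shared a region, in place of 9.55% by interval. The alternatives for exon classes and for coding cores, which left 18.1% to 39.4% of coding summits with the core except at 50 bp (18 of 100), were chosen after the data were seen. Class differences were taken within each replicate, and there is no other group of samples to pair.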
